A study of Mus musculus with 36 samples.

Results

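Subcutaneous mouse tumours were compared by how much Cd8a they held, within a set of 12 libraries out of the 36 in the series. Cd8a encodes a chain of the co-receptor carried by cytotoxic T cells. Members were chosen by measured values and not by labels: counts were scaled to a total of 1000000 gene counts a library (CPM), libraries with H2-Ea-ps of no more than 10 CPM and Cp of no more than 1000 CPM were taken, and these were ranked by Cd8a and cut into the upper 6 (Cd8a-rich) and the lower 6 (Cd8a-poor). H2-Ea-ps is the gene of an MHC class II alpha chain that C57BL/6 mice do not express and BALB/c mice do, and Cp encodes the copper-carrying ferroxidase ceruloplasmin. The series holds 9 labelled groups of 4 tumours, 1 library a mouse, from the MC38, CT26 and PancO2 cell lines. All mice are labelled wild type and 12 weeks of age, as C57BL/6J or, for CT26, BALB/c, and all received 10 mg/kg of control IgG, anti-CTLA4 or anti-PD-1. RNA came from whole tumours collected at the end stage, so tumour, immune, stromal and vessel cells were all measured together.

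The class did not follow the labels. Of its 12 libraries, 4 are labelled MC38, 5 CT26 and 3 PancO2, and the 5 labelled CT26 showed no BALB/c-type H2-Ea-ps signal. The mismatch also ran the other way outside the class. Libraries labelled MC38 or PancO2 there expressed H2-Ea-ps, from 32.8 CPM in MC38 anti-PD-1 16 to 134 CPM in PancO2 IgG 54. The labels of all 3 models are therefore in doubt. The gene had 0 counts in 11 of the 12 libraries, where a count of 0 allows at most 0.0865 to 0.127 CPM, and 1 count, 0.0352 CPM, in the other, against 32.8 CPM in the lowest library above the limit. Cp reached 611 CPM in the highest library of the class and 1389 CPM in the lowest library above the limit. Labels of model and treatment were therefore not used to form groups, and each library is called by its label only as a name. By label, IgG libraries were 4 Cd8a-rich and 1 Cd8a-poor, anti-CTLA4 libraries 2 and 2, and anti-PD-1 libraries 0 and 3. By labelled model, MC38 libraries were 3 Cd8a-rich and 1 Cd8a-poor, CT26 libraries 1 and 4, and PancO2 libraries 2 and 1. The groups are not treatments, and labelled treatment, labelled model and Cd8a level cannot be told apart here.

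Cytotoxic T cells recognise peptides on MHC class I molecules through the T cell receptor and its CD3 chains, kill through granzymes, perforin and Fas ligand, and secrete interferon gamma. Interferon gamma signals to neighbouring cells, where the IRF factors it induces help to turn on guanylate-binding proteins, immunity-related GTPases, the chemokines CXCL9 to CXCL11, the MHC class I loading machinery and, through CIITA, MHC class II. The same signal raises PD-L1, the ligand of the inhibitory receptor PD-1 that checkpoint antibodies block.

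Cd8a, at chr6:71373427-71379173 on the plus strand (GRCm38), was 36.3 CPM in the library MC38 IgG 2, 29.8 in MC38 anti-CTLA4 11, 24.2 in PancO2 IgG 51, 22.02 in PancO2 IgG 49, 21.3 in MC38 anti-CTLA4 10 and 17.1 in CT26 IgG 29. The Cd8a-poor libraries were CT26 anti-PD-1 41 with 10.5 CPM, CT26 anti-CTLA4 32 with 9.93, PancO2 anti-CTLA4 61 with 9.86, MC38 anti-PD-1 19 with 7.93, CT26 anti-PD-1 40 with 1.84 and CT26 IgG 24 with 0.851. The means were 25.1 ± 6.88 and 6.82 ± 4.34 CPM (SD, n = 6 each), a ratio of 3.68. These values chose the groups and are given with no test. The libraries next to the limit between the groups had 17.1 CPM (exact 95% interval 15.7 to 18.7) and 10.5 CPM (9.36 to 11.8). The groups were cut on these values, so the intervals describe counting precision and are no test of the split. The lowest library rested on 28 counts and the next on 45, and these 2 libraries lay well under the other 4 of their group. Such intervals cover counting error only. Cd8b1, the gene of the other co-receptor chain, put all 12 libraries into the same groups.

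**Figure D1:**
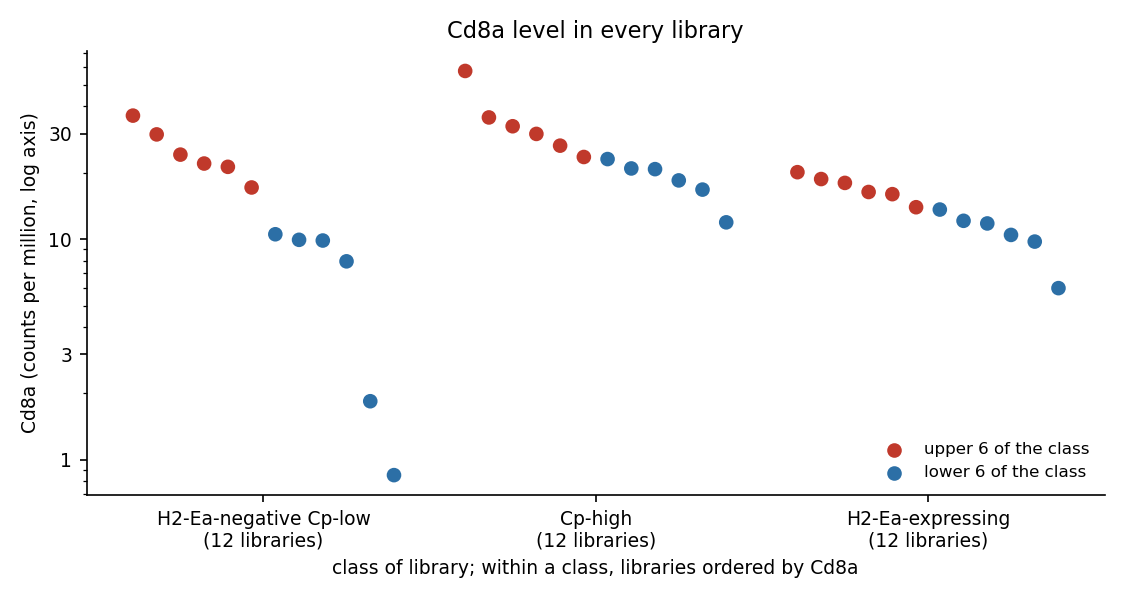
Cd8a level (CPM, log axis) in all 36 libraries, 1 point a library, ordered within each of the 3 classes and coloured by the upper and lower 6 of the class. In the H2-Ea-negative, Cp-low class the points run from 36.3 down to 0.851 CPM with a step between 17.1 and 10.5 CPM, and 2 points lie apart at the bottom.

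The depth and make-up of the libraries overlapped between the groups. Gene counts per library ran from 23709709 to 33852623 in the Cd8a-rich tumours and from 24438561 to 34698970 in the Cd8a-poor tumours (exact permutation p = 0.846, two-sided). Mitochondrially encoded genes took 2.80% to 3.33% of gene counts against 2.996% to 3.30% (exact permutation p = 0.978). Reads listed without a gene were 47.4% to 55.9% against 44.8% to 59.8% (exact permutation p = 0.515). Over the 6 such measures compared, the adjusted p was 0.978 for each.

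Of 15562 genes tested besides Cd8a, 192 were higher in the Cd8a-rich tumours (1.23% of those tested) and 9 were lower (0.0578%), by edgeR's quasi-likelihood test with a Benjamini-Hochberg adjusted p under 0.05. Adjusted p values in the following paragraphs come from that test, and log2 fold changes are Cd8a-rich over Cd8a-poor with their SE. An unadjusted edgeR p under 0.05 was reached by 1248 of the 15562 genes, in either direction. DESeq2 called 356 genes higher and 38 lower of 15559 tested, and limma-voom called 216 higher and 8 lower. Genes carried by the same cells as Cd8a are tied to the ranking, so the calls describe what follows the split. By the labels each library is from a mouse of its own, and nothing else was used to tell replicates apart. In bulk RNA, fewer cells of a type and less RNA per cell cannot be told apart. The fold changes of the 192 genes ran from 0.31 to 4.23 on the log2 scale with a median of 1.28, while the median over all genes tested was -0.0073. All 6 rich libraries lay above all 6 poor ones for 212 genes tested (1.36%), 165 of them among the 192, and below them for 23 genes (0.148%), 4 of them among the 9. Leaving out MC38 IgG 2 left 123 genes higher and 1 lower, leaving out CT26 anti-PD-1 40 left 129 and 1, leaving out MC38 anti-PD-1 19 left 129 and 2, and leaving out the 2 libraries of lowest Cd8a left 109 and 1 (0.685% higher).

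Genes of the T cell receptor and its signalling gave the largest number of calls of any list: 18 of the 25 on the list were higher and 1 was lower, with a median log2 fold change of 1.53. Values per group are given as the lowest, the median and the highest of 6 libraries. Cd3e, a signalling chain of the receptor (chr9:44998740-45009627, minus strand), had 0.614, 2.81 and 3.80 CPM in the Cd8a-poor tumours and 6.89, 9.97 and 16.4 CPM in the Cd8a-rich tumours. Cd3g, its neighbour at chr9:44969572-44980431, had 0.696, 2.69 and 3.83 CPM in the Cd8a-poor tumours and 6.59, 9.77 and 15.9 CPM in the Cd8a-rich tumours. The groups did not overlap for either gene, and the 2 libraries of lowest Cd8a were also the 2 lowest for both. Their log2 fold changes were 2.11 ± 0.38, adjusted p = 0.0133, and 2.16 ± 0.38, adjusted p = 0.0127.

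Trac, the constant region of the receptor's alpha chain, had 0.450, 1.502 and 2.28 CPM in the Cd8a-poor tumours and 3.84, 4.40 and 8.98 CPM in the Cd8a-rich tumours (log2 fold change 1.86 ± 0.34, adjusted p = 0.0127). Cd8b1 had 0.368, 1.98 and 2.96 CPM against 4.04, 6.54 and 9.96 CPM (1.98 ± 0.44, adjusted p = 0.0464). Both were named after their values were seen. Smaller fold changes were measured for the kinases that act just below the receptor. Lck, the kinase bound to the CD8 tail, had 2.58, 3.51 and 5.99 CPM in the Cd8a-poor tumours and 7.71, 9.92 and 16.1 CPM in the Cd8a-rich tumours (1.43 ± 0.24, adjusted p = 0.00753). Zap70, the kinase recruited to phosphorylated CD3 chains, had 0.851, 1.61 and 2.19 CPM against 2.85, 4.39 and 6.57 CPM (1.58 ± 0.26, adjusted p = 0.00764). Cd2, an adhesion receptor of T cells, and Ptprcap, a partner of CD45, gave log2 fold changes of 1.53 ± 0.25, adjusted p = 0.00723, and 1.30 ± 0.22, adjusted p = 0.00753. Cxcr6, a chemokine receptor of tissue-resident T cells and the receptor of CXCL16, had 0.395, 2.73 and 3.50 CPM against 7.03, 9.60 and 18.4 CPM (2.28 ± 0.49, adjusted p = 0.0399). Without the 2 libraries of lowest Cd8a, 13 of the 25 genes were higher and the list's median was 1.25. Cd8b1 lost the call in 11 and Cxcr6 in 9 of 12 removals of a single library, with the highest adjusted p, 0.125 and 0.107, without MC38 IgG 2. Cd3e, Cd3g, Trac, Lck, Zap70, Cd2 and Ptprcap were called whichever single library was left out.

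Tcf7 was the list's exception. It encodes TCF1, a factor of naive and memory-like T cells that other cells also express. It had 26.2, 28.999 and 34.2 CPM in the Cd8a-poor tumours and 22.2, 22.9 and 25.7 CPM in the Cd8a-rich tumours, with every rich library under every poor one (log2 fold change -0.34 ± 0.073, adjusted p = 0.0366), and without MC38 IgG 2 the adjusted p was 0.0966. Lef1, its relative, had a log2 fold change of 0.0028. Genes of CD4 and regulatory T cells gave 0 calls among the 9 tested by edgeR, with a median of 0.58 and 6 genes higher at an unadjusted p under 0.05. DESeq2 called 4 of them higher, which were Ctla4, Icos, Il2ra and Ikzf2, and limma-voom 2. Cd4 had 0.598, 1.04 and 3.09 CPM against 1.54, 2.69 and 4.68 CPM (1.17 ± 0.39, adjusted p = 0.266), and Foxp3, the factor of regulatory T cells, had 0.639, 0.983 and 1.41 CPM against 0.849, 1.10 and 1.56 CPM (0.14 ± 0.23, adjusted p = 0.997). Both were named after their values were seen, and their groups overlapped.

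Among cytotoxic effectors 6 of 13 genes were higher, with a median log2 fold change of 1.25. Gzmb, a granzyme that triggers apoptosis in the target, had 5.07, 7.88 and 11.3 CPM in the Cd8a-poor tumours and 12.1, 18.8 and 30.5 CPM in the Cd8a-rich tumours (1.40 ± 0.23, adjusted p = 0.00785). Fasl, the death ligand, had 0.578, 1.01 and 1.51 CPM against 2.31, 2.71 and 4.91 CPM (1.57 ± 0.25, adjusted p = 0.00614). Ccl5, a chemokine stored and released by effector T cells, had 13.4, 19.8 and 24.8 CPM against 37.97, 42.2 and 61.6 CPM (1.25 ± 0.16, adjusted p = 0.00315). Ctsw, a cathepsin of cytotoxic cells, gave 1.40 ± 0.23, adjusted p = 0.00723. For these 4 genes the groups did not overlap, and each was called whichever library was left out. Prf1, the pore-forming protein, had 2.62, 3.73 and 6.72 CPM in the Cd8a-poor tumours and 5.40, 8.59 and 12.5 CPM in the Cd8a-rich tumours, with 4 of 6 rich libraries above all poor ones (1.06 ± 0.27, adjusted p = 0.0913), and was not called. The related granzymes Gzmc to Gzmf, whose sequences are close enough for reads to be set aside, had log2 fold changes between -0.40 and 0.43.

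Ifng, the gene of interferon gamma (chr10:118441046-118445892, plus strand), was sparse. It had 3, 5, 12, 11, 0 and 3 counts in the Cd8a-poor libraries, in the order given for Cd8a, and 80, 46, 41, 25, 19 and 24 counts in the Cd8a-rich ones. As CPM these were 0, 0.146 and 0.359 CPM against 0.735, 1.13 and 2.60 CPM, and the count of 0 in CT26 anti-PD-1 40 allows up to 0.123 CPM. Every rich library exceeded every poor one (2.79 ± 0.49, adjusted p = 0.0103). Tbx21, the factor T-bet that drives Ifng, gave 1.74 ± 0.30, adjusted p = 0.00928, and Il2rb, a chain of the receptors for interleukins 2 and 15, gave 1.54 ± 0.21, adjusted p = 0.00315. Il18r1, a chain of the receptor for interleukin 18, had 1.23, 1.59 and 2.57 CPM against 2.78, 5.05 and 7.59 CPM (1.53 ± 0.25, adjusted p = 0.00753), and Il18bp, a secreted inhibitor of that cytokine, had 5.89, 9.21 and 11.1 CPM against 12.9, 17.1 and 22.2 CPM (1.02 ± 0.17, adjusted p = 0.00716). These 4 were named after their values were seen.

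Receptors shared by natural killer cells and activated cytotoxic T cells were higher, while the natural killer genes Ncr1 and Klrb1c were not called. On the natural killer list 4 of 11 genes tested were higher, with a median of 0.70, and all 4 are killer lectin-like receptors. All 11 had a positive log2 fold change, and 7 were higher at an unadjusted edgeR p under 0.05. Klrk1, encoding NKG2D, had 2.22, 2.39 and 4.46 CPM in the Cd8a-poor tumours and 6.07, 9.16 and 12.5 CPM in the Cd8a-rich tumours (1.74 ± 0.22, adjusted p = 0.00315), and Klrd1, encoding CD94, had 1.596, 2.81 and 3.76 CPM against 4.55, 8.18 and 10.7 CPM (1.53 ± 0.23, adjusted p = 0.00512). Klrc1, encoding the CD94 partner NKG2A, gave 2.03 ± 0.41, adjusted p = 0.0254, and Klre1 gave 1.20 ± 0.24, adjusted p = 0.0253. These 2 genes lost the call in 5 and 6 of 12 removals of a single library, with the highest adjusted p, 0.0741 and 0.0776, without MC38 IgG 2. Ncr1 and Klrb1c, which mark natural killer cells, had log2 fold changes of 0.11 and 0.19. Whether natural killer cells had a part in the other results was not tested, and the Klr genes lie close together and resemble each other.

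**Figure D2:**
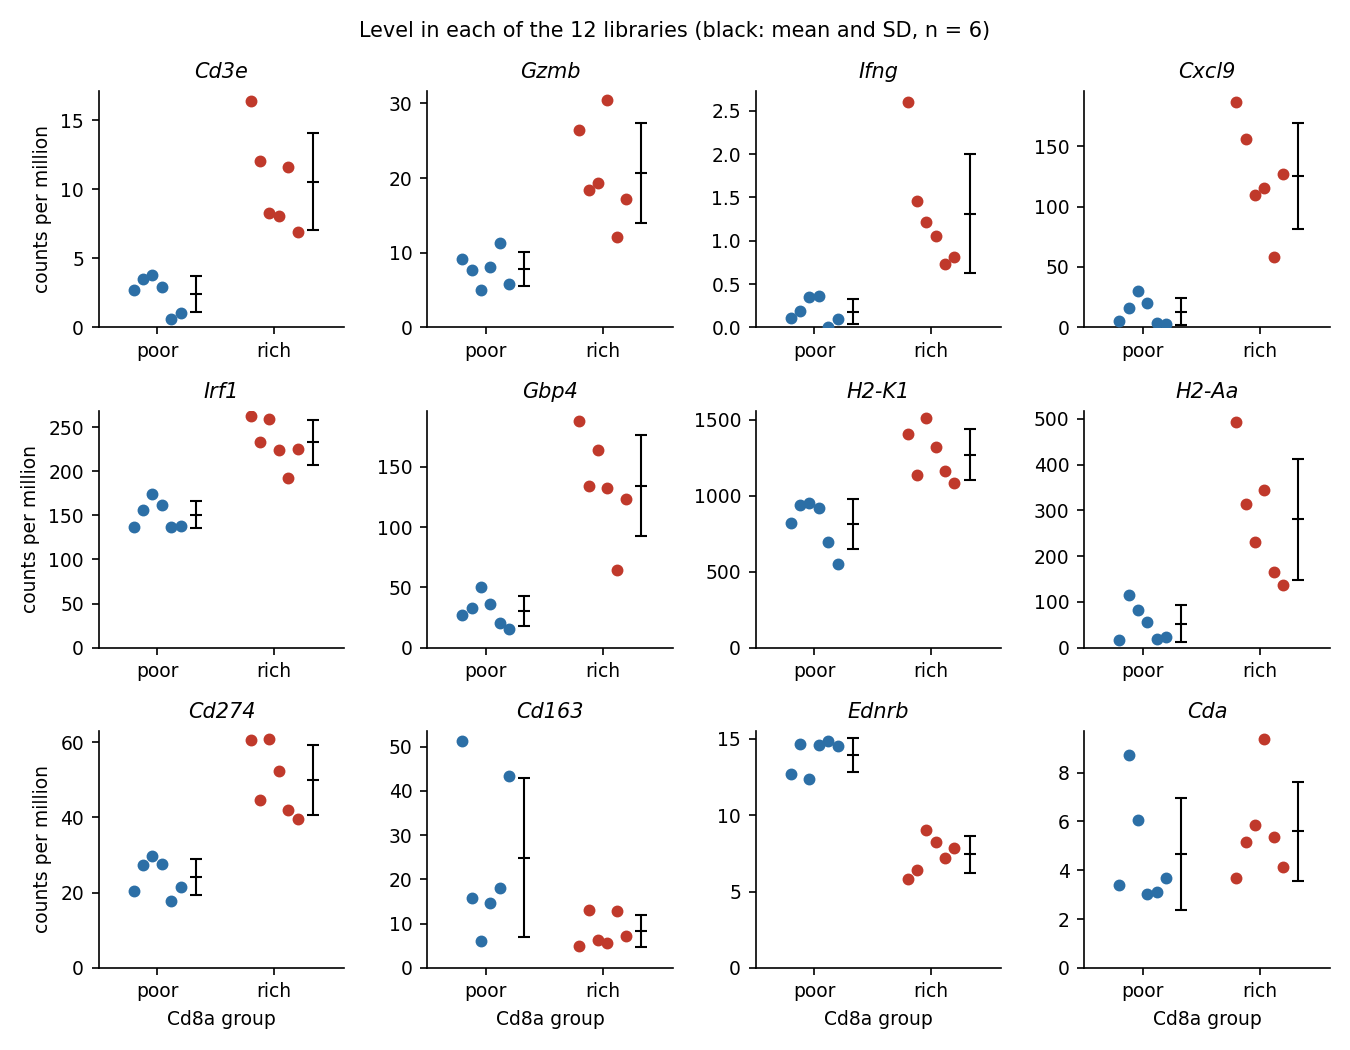
CPM of 12 genes in the 6 Cd8a-poor and 6 Cd8a-rich libraries, 1 point a library, placed from left to right within a group from high to low Cd8a, with the mean and SD in black. The 9 panels Cd3e to H2-Aa and Cd274 show higher levels in the rich group with no overlap, Ednrb is lower with no overlap, and Cd163 and Cda overlap.

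Chemokines that draw T cells through CXCR3 and CXCR6 were higher, and 4 of the 8 tested on that list were called, with a median of 0.86. Cxcl9 (chr5:92321347-92328079, minus strand) had 2.46, 10.7 and 30.3 CPM in the Cd8a-poor tumours and 58.1, 121 and 187 CPM in the Cd8a-rich tumours, which was the largest fold change among called genes with a symbol, a mean of at least 10 CPM in a group and no overlap (3.26 ± 0.56, adjusted p = 0.0127). It was called whichever library was left out. Cxcl10 and Cxcl11 lie beside it. Cxcl10 had 47.4, 73.3 and 84.1 CPM against 79.9, 122 and 145 CPM (0.73 ± 0.16, adjusted p = 0.0429), and PancO2 IgG 49, its lowest rich library, was under the highest poor one. Cxcl11 had 0.487, 1.18 and 1.44 CPM against 1.77, 2.60 and 3.43 CPM (1.35 ± 0.27, adjusted p = 0.0227), and it is annotated as a polymorphic pseudogene. Cxcl16, the ligand of CXCR6, had 73.7, 102 and 109 CPM against 119, 127 and 156 CPM (0.47 ± 0.10, adjusted p = 0.0339). Cxcl10, Cxcl11 and Cxcl16 lost the call in 10, 2 and 7 of 12 removals of a single library, with the highest adjusted p, 0.105 and 0.0992, without MC38 IgG 2 for Cxcl10 and Cxcl16 and 0.0615 without PancO2 IgG 51 for Cxcl11, and without the 2 libraries of lowest Cd8a 1 of the 8 genes was called.

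Of the genes induced by interferon gamma 16 of the 21 tested were higher and none was lower by edgeR, with a median of 1.23. The same number, 16, was called without the 2 libraries of lowest Cd8a, with a median of 1.10. Irf1, an early target of interferon signalling, had 137, 148 and 174 CPM in the Cd8a-poor tumours and 192, 229 and 262 CPM in the Cd8a-rich tumours (0.63 ± 0.092, adjusted p = 0.00386). Guanylate-binding proteins, which attack vacuoles and membranes of microbes, rose: Gbp3 had 59.6, 78.5 and 93.3 CPM against 127, 165 and 212 CPM (1.10 ± 0.13, adjusted p = 0.00287), Gbp4 had 15.8, 30.3 and 50.3 CPM against 64.4, 133 and 188 CPM (2.14 ± 0.30, adjusted p = 0.00430) and Gbp2 had 70.6, 121 and 159 CPM against 212, 449 and 515 CPM (1.81 ± 0.24, adjusted p = 0.00315). Of the immunity-related GTPases, Irgm1 had 66.5, 75.5 and 85.1 CPM in the Cd8a-poor tumours and 101, 144 and 162 CPM in the Cd8a-rich tumours (0.87 ± 0.11, adjusted p = 0.00287), Iigp1 had 17.97, 43.01 and 55.1 CPM against 79.1, 172 and 199 CPM (2.05 ± 0.30, adjusted p = 0.00512) and Ifi47, with the smallest adjusted p of all genes, had 50.8, 58.9 and 60.8 CPM against 92.1, 104 and 134 CPM (0.90 ± 0.086, adjusted p = 0.000853). The groups did not overlap for any of these 7 genes, and each was called whichever library was left out. Irf1, Gbp2 and Ifi47 were named after their values were seen. Serpina3g and Serpina3f, serine protease inhibitors of activated immune cells, gave 1.59 ± 0.21, adjusted p = 0.00315, and 2.95 ± 0.35, adjusted p = 0.00287. The Gbp, Irg and Serpina3 families hold near copies, and reads that fit several copies were set aside by the counting, so single members are uncertain.

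Socs1, the feedback inhibitor of interferon signalling, gave 0.46 ± 0.14, adjusted p = 0.163, and Ido1, a tryptophan-degrading enzyme, had 0.0912, 0.485 and 1.15 CPM against 1.08, 1.97 and 3.37 CPM (1.97 ± 0.48, adjusted p = 0.0665). Neither was called, and both were named after their values were seen. Among called genes with a mean of at least 10 CPM in a group and no overlap, the largest fold change belonged to ENSMUSG00000028269, which had no symbol in the annotation used, with 0.0912, 0.542 and 1.04 CPM against 2.75, 5.73 and 23.3 CPM (4.23 ± 0.66, adjusted p = 0.00723), followed by Cxcl9 and by Apol6, an apolipoprotein L gene, with 0.409, 1.90 and 5.45 CPM against 7.81, 24.4 and 32.3 CPM (3.19 ± 0.56, adjusted p = 0.0137).

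Promoters of 3 called interferon genes are shown because they hold matches to the element that the IRF factors are known to bind. It was searched as GAAANNGAAA, on both strands (overlaps counted), in RefSeq windows from 250 bases before to 50 after each start (GRCm38.p6), and was in 3.44% of all 32851 windows. In the following windows capitals mark matches. Those of Gbp2 (chr3:142620413-142620712, plus strand) and Cxcl10 (chr5:92348840-92349139, minus strand) hold 1 match, and that of Irgm1 (chr11:48871371-48871670, minus strand) holds 2 overlapping matches.
Gbp2: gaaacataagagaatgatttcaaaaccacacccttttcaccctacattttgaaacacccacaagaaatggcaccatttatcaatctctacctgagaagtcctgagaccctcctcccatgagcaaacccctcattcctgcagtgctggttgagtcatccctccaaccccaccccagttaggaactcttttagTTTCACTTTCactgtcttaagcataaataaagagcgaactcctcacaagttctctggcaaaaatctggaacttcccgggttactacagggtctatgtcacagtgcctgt
Irgm1: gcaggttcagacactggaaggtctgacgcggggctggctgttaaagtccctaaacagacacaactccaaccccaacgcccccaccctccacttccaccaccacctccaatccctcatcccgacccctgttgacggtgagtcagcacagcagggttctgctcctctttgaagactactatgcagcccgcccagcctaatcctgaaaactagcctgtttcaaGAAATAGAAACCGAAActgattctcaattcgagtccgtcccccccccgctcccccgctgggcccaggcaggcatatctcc
Cxcl10: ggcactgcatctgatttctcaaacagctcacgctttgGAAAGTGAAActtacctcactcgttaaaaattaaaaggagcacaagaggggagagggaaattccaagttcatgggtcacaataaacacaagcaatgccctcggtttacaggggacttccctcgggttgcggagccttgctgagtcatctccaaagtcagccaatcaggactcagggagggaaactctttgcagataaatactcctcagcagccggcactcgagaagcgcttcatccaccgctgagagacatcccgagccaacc

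The element was in the windows of 30 of the 132 genes called higher that had a window (22.7%), against 439 of the 11012 genes tested that had one (3.99%). Among called genes of the interferon gamma list, 8 of 12 with a window held it. Of the 12 such genes on the T cell receptor list 0 did, and of the 12 on the MHC class I list 3 did. These matches are letters in a fixed window, not measured binding.

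Genes counted as type I interferon targets moved the same way by smaller steps, with 6 of 23 called higher and a median of 0.52, while DESeq2 called 15 higher. All 23 had a positive log2 fold change, and 21 were higher at an unadjusted edgeR p under 0.05. Zbp1, a sensor of nucleic acids in the Z form, had 49.6, 53.6 and 58.4 CPM in the Cd8a-poor tumours and 69.7, 117 and 133 CPM in the Cd8a-rich tumours (1.03 ± 0.14, adjusted p = 0.00315). Oasl2, Rtp4 and Stat2, a synthetase-like protein, a receptor-transporting protein and a transcription factor of type I interferon signalling, gave 0.63 ± 0.10, adjusted p = 0.00527, 0.73 ± 0.11, adjusted p = 0.00575, and 0.63 ± 0.10, adjusted p = 0.00672. These 4 were called whichever library was left out. Common markers of type I interferon were divided. Ifit3 was called (0.64 ± 0.13, adjusted p = 0.0231), as was Dhx58 (0.57 ± 0.12, adjusted p = 0.0316). Isg15, Mx1 and Rsad2 had log2 fold changes of 0.52, 0.46 and 0.22 and were not called. These markers were named after their values were seen. Off the lists, 11 genes of the Ifi200 family, interferon-inducible proteins that include DNA sensors, were tested, and 6 were called higher and 0 lower. The 6 were Ifi205, Mndal, Ifi203, Ifi204, Ifi206 and Ifi211, with log2 fold changes from 0.43 for Ifi211 to 0.87 for Ifi206, and those not called ran from -0.17 for Ifi207 to 0.82 for Ifi214. Ifi205 had 8.06, 9.14 and 11.6 CPM against 13.9, 17.2 and 20.9 CPM (0.83 ± 0.12, adjusted p = 0.00338). Ifi211, Ifi206 and Ifi204 lost the call in 6, 3 and 1 of 12 removals of a single library. The family was chosen after its values were seen, and its members are close copies in 1 cluster.

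MHC class I presentation had the highest share of calls of any list: 15 of 16 genes tested were higher, with a median of 0.61. B2m, the light chain of class I, had 843, 1178 and 1323 CPM in the Cd8a-poor tumours and 1436, 1679 and 1976 CPM in the Cd8a-rich tumours (0.55 ± 0.11, adjusted p = 0.0253). H2-K1, a classical heavy chain, had 550.1, 872 and 954 CPM against 1086, 1242 and 1512 CPM (0.65 ± 0.14, adjusted p = 0.0327), and H2-D1 had 539, 725 and 832 CPM against 882, 1032 and 1152 CPM (0.56 ± 0.12, adjusted p = 0.0288). Tap1 (chr17:34187553-34197225, plus strand), a subunit of the peptide transporter, had 58.7, 96.6 and 107 CPM against 129.6, 177 and 241 CPM (1.004 ± 0.17, adjusted p = 0.00753), and Tap2 gave 0.57 ± 0.095, adjusted p = 0.00753. Psmb8 (chr17:34197721-34201454, plus strand) and Psmb10, inducible subunits of the immunoproteasome, had 72.5, 82.5 and 98.7 CPM against 111, 130.0 and 153 CPM (0.65 ± 0.095, adjusted p = 0.00373), and 46.3, 61.4 and 72.1 CPM against 81.4, 96.05 and 106 CPM (0.63 ± 0.10, adjusted p = 0.00530). Nlrc5, which transactivates class I genes, gave 0.85 ± 0.19, adjusted p = 0.0496, and 1 rich library lay under the highest poor one. The groups did not overlap for the other 7 genes. Tap1, Tap2, Psmb8 and Psmb10 were called whichever library was left out. B2m, H2-K1, H2-D1 and Nlrc5 were named after their values were seen. They lost the call in 6, 6, 6 and 9 of 12 removals of a single library. The highest adjusted p values, 0.0819, 0.101, 0.0942 and 0.136, came without MC38 IgG 2. Without the 2 libraries of lowest Cd8a 6 of the 16 genes were called. The heavy-chain genes are close copies that can share reads, so single members are uncertain.

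MHC class II presentation had the highest median of any list, 1.74, with 6 of 10 genes called. H2-Aa (chr17:34282744-34287823, minus strand), the alpha chain of I-A, had 16.6, 39.2 and 114 CPM in the Cd8a-poor tumours and 136, 273 and 494 CPM in the Cd8a-rich tumours (2.44 ± 0.52, adjusted p = 0.0414). H2-Ab1, its beta chain, had 12.7, 30.1 and 81.96 CPM against 108, 189 and 367 CPM (2.36 ± 0.51, adjusted p = 0.0447), and H2-Eb1 had 10.7, 25.4 and 76.8 CPM against 93.9, 189 and 393 CPM (2.52 ± 0.53, adjusted p = 0.0399). Ciita, the transactivator of class II genes, had 1.34, 3.26 and 6.60 CPM against 6.88, 18.02 and 29.2 CPM (2.19 ± 0.45, adjusted p = 0.0320). The groups did not overlap for these 4 genes, but the spread within the poor group was wide, with CT26 anti-PD-1 41 lowest for H2-Aa at 16.6 CPM and CT26 anti-CTLA4 32 highest at 114.1. H2-DMb1 and H2-DMa, which load peptide, gave 1.26 ± 0.23, adjusted p = 0.0163, and 1.01 ± 0.20, adjusted p = 0.0253. H2-DMa lost the call in 6 of 12 removals of a single library, with an adjusted p up to 0.0731 without CT26 anti-PD-1 40. Cd74, the invariant chain, had 46.1, 105 and 307 CPM against 363, 682 and 1325 CPM (2.31 ± 0.53, adjusted p = 0.0584) and was not called, though the groups did not overlap. H2-Aa, H2-Ab1, H2-Eb1 and Ciita each lost the call in 8 of 12 removals of a single library (adjusted p up to 0.103, 0.107 and 0.0981 without MC38 IgG 2, and 0.0823 without CT26 anti-PD-1 40), and without the 2 libraries of lowest Cd8a 0 of the 10 genes were called by edgeR, with a median of 1.52.

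Class II genes are expressed by dendritic cells, macrophages and B cells. On the dendritic cell list 1 of 13 genes was called by edgeR, with a median of 0.35, while 7 were higher at an unadjusted p under 0.05, and DESeq2 called 4 higher and limma-voom 2. Xcr1, the chemokine receptor of cross-presenting dendritic cells, had 0.517, 1.14 and 1.73 CPM in the Cd8a-poor tumours and 2.31, 2.80 and 6.25 CPM in the Cd8a-rich tumours (1.56 ± 0.31, adjusted p = 0.0224). Xcr1 lost the call in 3 of 12 removals of a single library, with an adjusted p up to 0.0671 without CT26 anti-PD-1 40. Clec9a, which marks the same cells, had 7.30, 9.75 and 13.6 CPM against 7.53, 10.4 and 15.98 CPM (0.15 ± 0.19, adjusted p = 0.992), and Batf3, their factor, had 0.669, 0.959 and 2.13 CPM against 2.01, 2.48 and 3.45 CPM (1.16 ± 0.27, adjusted p = 0.0525). Of 6 B and plasma cell genes tested 1 was called: Ighm, the heavy chain of IgM, had 2.25, 4.47 and 7.15 CPM against 6.55, 10.5 and 15.5 CPM (1.25 ± 0.25, adjusted p = 0.0253). Ighm lost the call in 6 of 12 removals of a single library, with an adjusted p up to 0.0720 without MC38 IgG 2. Cd79a, the receptor chain of B cells, had 1.84, 2.14 and 4.17 CPM against 1.27, 2.64 and 4.24 CPM (0.02 ± 0.31, adjusted p = 0.9998). Ms4a1, a defining B cell gene, stayed at or under 0.182 CPM in all 12 libraries, and the summed level of the list was 12.2 to 22.5 CPM in the rich and 6.18 to 13.2 CPM in the poor tumours. Dnase1l3, an endonuclease of dendritic cells and macrophages, had 0.205, 0.588 and 1.499 CPM against 3.02, 7.08 and 13.99 CPM (3.32 ± 0.46, adjusted p = 0.00363) and was named after its values were seen. The part of these cells in the class II values was not tested.

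Both ligand genes of PD-1 were called higher. Cd274, encoding PD-L1 (chr19:29367455-29388095, plus strand), had 17.8, 24.5 and 29.8 CPM in the Cd8a-poor tumours and 39.6, 48.4 and 60.9 CPM in the Cd8a-rich tumours (1.06 ± 0.15, adjusted p = 0.00338). Its neighbour Pdcd1lg2, encoding PD-L2 (chr19:29410919-29471161, plus strand), had 0.282, 0.387 and 0.576 CPM against 1.35, 2.42 and 4.82 CPM (2.84 ± 0.32, adjusted p = 0.00287) and was named after its values were seen. Both were called whichever library was left out. Pdcd1, encoding PD-1, had 0.395, 2.50 and 3.31 CPM in the Cd8a-poor tumours and 4.21, 7.08 and 11.3 CPM in the Cd8a-rich tumours (1.87 ± 0.43, adjusted p = 0.0583), and the groups did not overlap. Of the 9 inhibitory receptor genes tested 1 was called by edgeR, with a median of 0.82, while 7 were higher at an unadjusted p under 0.05, and DESeq2 called 5 higher and limma-voom 1. Btla, the one called by edgeR, had 0.777, 1.23 and 1.41 CPM against 1.53, 2.52 and 5.04 CPM (1.30 ± 0.27, adjusted p = 0.0279). Btla lost the call in 6 of 12 removals of a single library, with an adjusted p up to 0.0784 without CT26 anti-PD-1 40. Lag3 gave 0.82 ± 0.21, adjusted p = 0.0743, Havcr2, encoding TIM-3, 0.42 ± 0.14, adjusted p = 0.251, and Tigit 0.37 ± 0.27, adjusted p = 0.926, all named after their values were seen. Entpd1, encoding CD39, had 49.2, 57.8 and 63.9 CPM against 52.2, 60.5 and 78.3 CPM (0.14 ± 0.11, adjusted p = 0.944). Ctla4, the target of the other antibody, had 0.493, 0.729 and 2.79 CPM against 2.11, 2.24 and 3.63 CPM (1.28 ± 0.36, adjusted p = 0.133), and the high poor value belongs to the library labelled CT26 anti-CTLA4 32.

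**Figure D3:**
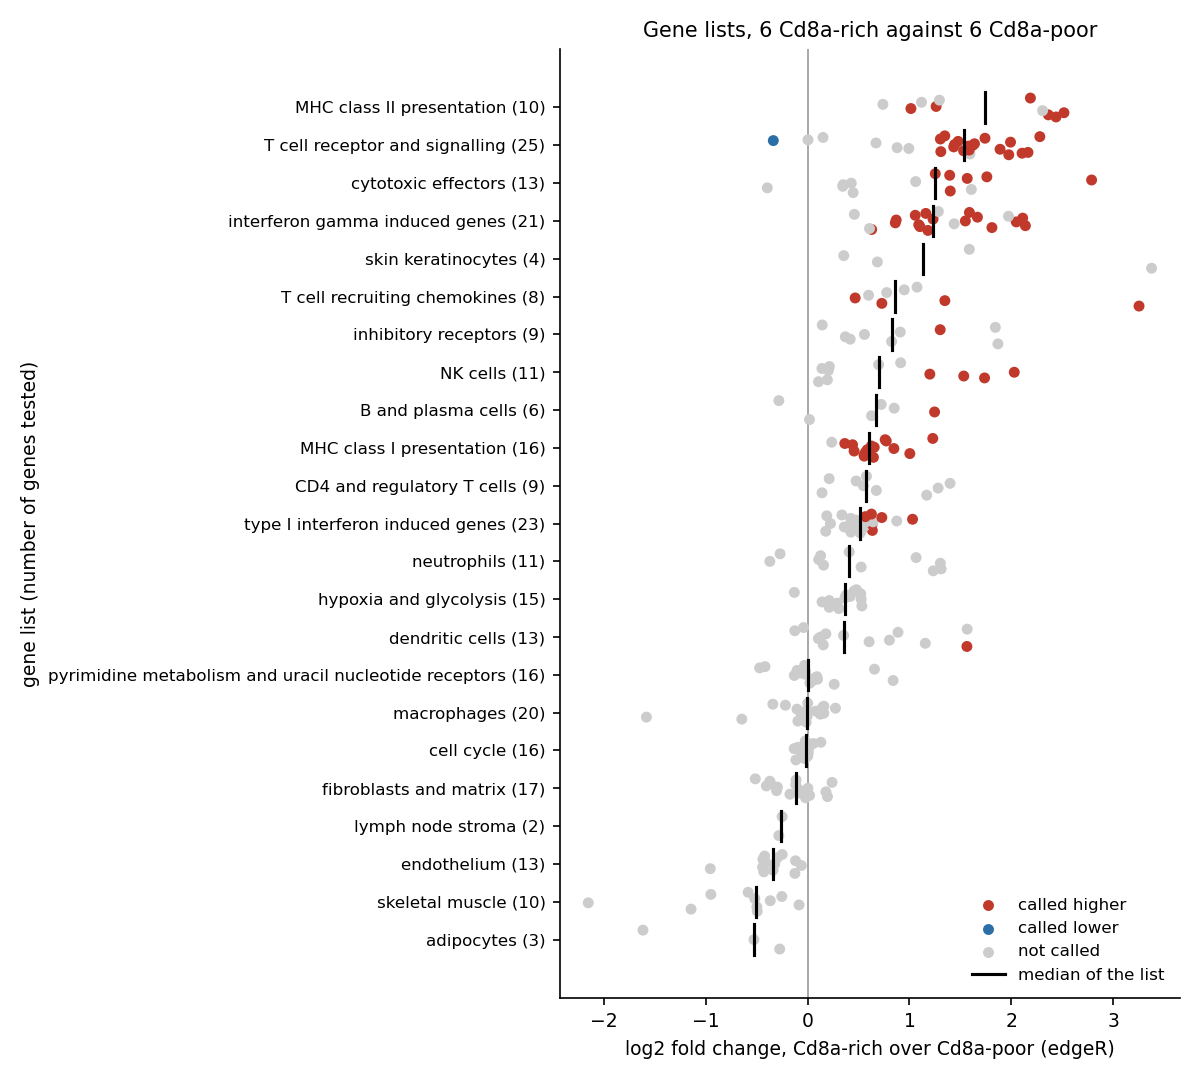
Log2 fold change (Cd8a-rich over Cd8a-poor) of every gene tested on 23 lists, 1 point a gene, with the list's median as a black bar, red points for genes called higher and blue for lower. Medians run from 1.74 for MHC class II to -0.53 for adipocytes, and the MHC class I points sit close together around 0.61 with 15 of 16 called.

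The 9 genes that were lower in the Cd8a-rich tumours were Ednrb, Tcf7, Afap1l1, Grb10, Cd93, Podxl, Abcc9, Slc40a1 and Reps2, and the groups did not overlap for the first 4. Ednrb, an endothelin receptor of vascular and neural crest cells (chr14:103814625-103844402, minus strand), had 12.4, 14.6 and 14.9 CPM in the Cd8a-poor tumours and 5.79, 7.54 and 9.04 CPM in the Cd8a-rich tumours (-0.90 ± 0.11, adjusted p = 0.00315). It was the 1 gene among the 9 that was called whichever library was left out. Afap1l1, an actin-associated protein, had 10.003, 11.4 and 14.98 CPM against 5.08, 7.17 and 9.39 CPM (-0.71 ± 0.16, adjusted p = 0.0496), and Grb10, an adaptor that restrains insulin signalling, had 11.3, 13.1 and 15.5 CPM against 5.70, 8.66 and 10.5 CPM (-0.65 ± 0.14, adjusted p = 0.0382). Cd93, a receptor of endothelial cells, had 145, 170.0 and 213 CPM against 117, 123 and 154 CPM (-0.43 ± 0.10, adjusted p = 0.0477), Podxl, a sialomucin of vessels and podocytes, had 26.5, 28.5 and 30.7 CPM against 17.2, 21.3 and 27.2 CPM (-0.41 ± 0.094, adjusted p = 0.0467), and Abcc9, a potassium channel subunit of pericytes and muscle, had 15.01, 21.3 and 28.8 CPM against 11.6, 12.3 and 17.3 CPM (-0.69 ± 0.15, adjusted p = 0.0433). Slc40a1, the iron exporter ferroportin, had 5.24, 8.74 and 11.9 CPM against 3.21, 3.79 and 5.88 CPM (-0.996 ± 0.22, adjusted p = 0.0353), and Reps2, an endocytosis adaptor, had 2.07, 4.41 and 8.35 CPM against 1.39, 1.59 and 2.66 CPM (-1.51 ± 0.31, adjusted p = 0.0281). The last 5 were named after their values were seen. Each of these 7, like Tcf7, lost the call in 8 to 11 of 12 removals of a single library, with adjusted p up to 0.128, 0.107, 0.121, 0.107, 0.121, 0.102 and 0.0819 in the order given, without CT26 anti-PD-1 40 for Afap1l1 and Podxl and without MC38 IgG 2 for the other 5.

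On the endothelial list 0 of 13 genes were called by edgeR, yet all 13 had a negative log2 fold change, with a median of -0.34. An unadjusted p under 0.05 was reached by 8 of the 13, all of them lower, against 1248 of all 15562 genes in either direction. How many of the 1248 were lower was not counted. DESeq2 called 5 of the 13 lower (Tie1, Cdh5, Emcn, Tek and Robo4, all genes of endothelial identity or angiopoietin signalling) and limma-voom 0. Over all 15559 genes DESeq2 called 38 lower. By DESeq2 Tie1 had a log2 fold change of -0.45 ± 0.12 (adjusted p = 0.00729). Cdh5, the cadherin of endothelial junctions, had 67.3, 76.02 and 85.01 CPM against 40.5, 56.5 and 73.3 CPM (-0.43 ± 0.12, adjusted p = 0.109), and Pecam1 had 47.97, 52.96 and 63.6 CPM against 38.4, 51.9 and 57.9 CPM (-0.13 ± 0.094, adjusted p = 0.936). The summed level of the list was 212 to 349 CPM in the rich and 321 to 391 CPM in the poor tumours. How far vessel content bore on the lower genes was not tested.

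Of the 20 macrophage genes 0 were called by edgeR, DESeq2 or limma-voom (1 higher and 3 lower at an unadjusted edgeR p under 0.05), with a median of -0.012, and their summed level was 4427 to 7099 CPM in the rich and 4706 to 8137 CPM in the poor tumours. Cd163, a scavenger receptor for haemoglobin, had 6.11, 16.9 and 51.2 CPM in the Cd8a-poor tumours and 5.01, 6.68 and 13.2 CPM in the Cd8a-rich tumours, with overlapping groups (-1.58 ± 0.47, adjusted p = 0.191). Mrc1, encoding CD206, had 296, 459 and 662 CPM against 245, 265 and 484 CPM (-0.65 ± 0.24, adjusted p = 0.377). Msr1, a scavenger receptor, gave -0.04 ± 0.10, adjusted p = 0.999, Apoe, a lipid carrier, 0.08 ± 0.26, adjusted p = 0.999, and Lyz2, a lysozyme, -0.34 ± 0.16, adjusted p = 0.638. P2ry6, a receptor for UDP on macrophages, had 27.1, 31.4 and 38.996 CPM against 24.3, 28.6 and 38.3 CPM (-0.10 ± 0.11, adjusted p = 0.992).

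Cda, the cytidine deaminase of the pyrimidine salvage pathway and the study's gene of interest, had 3.04, 3.53 and 8.74 CPM in the Cd8a-poor tumours and 3.68, 5.26 and 9.36 CPM in the Cd8a-rich tumours, with overlapping groups (0.26 ± 0.29, adjusted p = 0.992). Of 16 genes of pyrimidine metabolism and uracil nucleotide receptors none was called by edgeR (1 higher and 1 lower at an unadjusted p under 0.05), and the list's median was -0.000039. DESeq2 called 1 higher, Upp1, a uridine phosphorylase, with a log2 fold change of 0.84 ± 0.23 (adjusted p = 0.0114). Cad, the enzyme that opens pyrimidine synthesis, and Uck2, a uridine-cytidine kinase, gave -0.13 ± 0.11, adjusted p = 0.961, and 0.03 ± 0.12, adjusted p = 0.999. An adjusted p this high does not show that Cda was alike in both groups. In the other 24 libraries the same split gave 0.12 ± 0.15.

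The remaining lists gave no call in either direction by edgeR or limma-voom, while DESeq2 called Krt14 and Lgals7 of the skin list higher and Fn1 of the matrix list lower. At an unadjusted p under 0.05 by edgeR, 3 skin, 2 hypoxia and 1 neutrophil gene were higher, 2 matrix, 1 muscle and 1 adipocyte gene were lower, and no cell cycle or lymph node gene was either. Over all 15562 genes tested, 1248 reached that level in either direction. Genes that DESeq2 alone called were named after their values were seen. Cell cycle genes had a median of -0.019 over 16 genes, with Top2a at -0.02 ± 0.11, adjusted p = 0.999 and Mki67 at -0.12 ± 0.11, adjusted p = 0.981. Fibroblast and matrix genes had a median of -0.11 over 17 genes, with Col3a1 at 0.02 ± 0.23, adjusted p = 0.9998 and Fn1 at -0.37 ± 0.11, adjusted p = 0.174. Hypoxia and glycolysis genes had a median of 0.37 over 15 genes, 14 of them positive, with Eno1 at 0.14 ± 0.11, adjusted p = 0.947 and Ldha at 0.22 ± 0.15, adjusted p = 0.888. Neutrophil genes had a median of 0.41 over 11 genes, with Mmp9 at 0.11 ± 0.33, adjusted p = 0.999 and Il1b at 1.07 ± 0.64, adjusted p = 0.850, and summed levels of 239 to 1029 CPM in the rich and 397 to 804 CPM in the poor tumours. Genes of neighbouring tissue varied widely between libraries of 1 group. Skin keratinocyte genes summed to 5.88 to 99.2 CPM in the rich and 4.78 to 14.6 CPM in the poor tumours, with Krt14 at 0.458, 1.30 and 1.93 CPM against 0.532, 3.52 and 46.3 CPM (3.38 ± 1.05, adjusted p = 0.223) and Krt10 at 0.68 ± 0.30, adjusted p = 0.539. Skeletal muscle genes summed to 17.6 to 99.4 against 23.8 to 152 CPM, with a median of -0.51 and with Myh1 at -0.50 ± 0.43, adjusted p = 0.972 and Acta1 at -0.50 ± 0.96, adjusted p = 0.999. Adipocyte genes had a median of -0.53 over 3 genes (Fabp4 -0.53 ± 0.19, adjusted p = 0.354, Plin4 -0.28 ± 0.37, adjusted p = 0.992), and lymph node genes -0.27 over 2 (Enpp2 -0.25 ± 0.36, adjusted p = 0.994, Fcer2a -0.28 ± 0.42, adjusted p = 0.995). The part of skin, muscle or fat in the immune results was not tested.

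Within the groups too, the levels of the called genes differed between libraries. MC38 IgG 2, the library with the most Cd8a, held the highest value of 128 of the 192 genes. CT26 IgG 24 held the lowest value of 82 and CT26 anti-PD-1 40 that of 65, and for 91 genes these 2 libraries were the lowest 2 of the 12. The median ratio of the rich mean to that of the other 4 poor libraries was 2.17, and of these 4 to the 2 lowest 1.37. The genes were called from this same split, so the first ratio is raised by that choice. None of these counts and ratios was compared with all genes tested. The ratios were not the same for each list. For the 18 called T cell receptor genes the ratios were 2.63 and 2.20, for the 16 called interferon gamma genes 2.25 and 1.30, and for the 6 called type I interferon genes 1.55 and 1.03. For the 6 called MHC class II genes they were 3.76 and 3.02. For the class II genes, however, the 2 libraries of lowest Cd8a were the lowest 2 of the 12 for 1 gene only, and CT26 anti-PD-1 41 was the lowest of all for H2-Aa, H2-Ab1 and H2-Eb1.

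**Figure D4:**
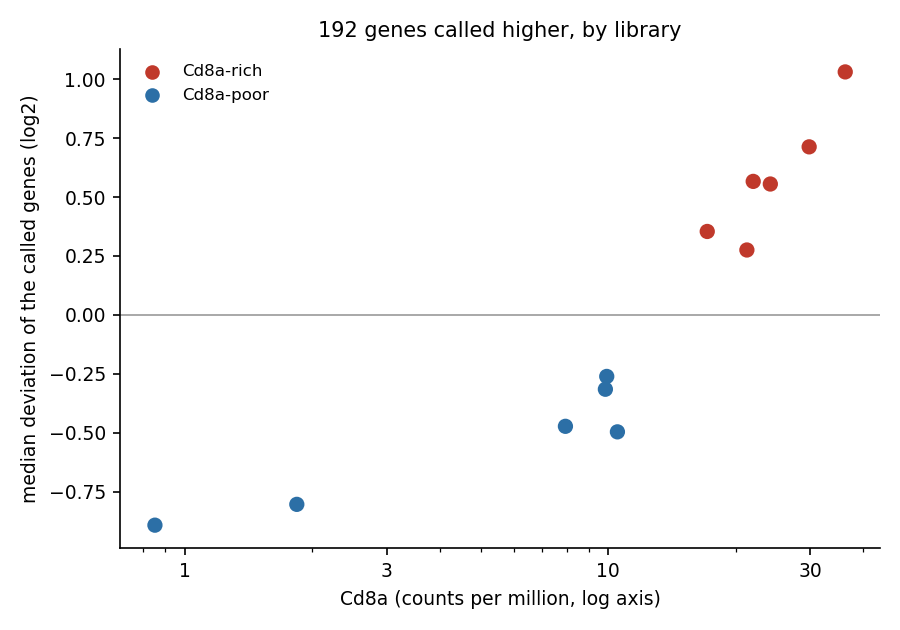
Median deviation of the 192 genes called higher from their mean over the 12 libraries (log2 CPM, vertical) against Cd8a (CPM, log axis), 1 point a library. The rich libraries lie between 0.28 and 1.03 and the poor ones between -0.89 and -0.26, but the genes were called from this same split, so the separation itself is no finding.

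The same split was then made in the 24 libraries that had not been used, 12 with more than 1000 CPM of Cp and 12 that expressed H2-Ea-ps, each class cut at its own Cd8a median. There the ratio of Cd8a means was smaller, 1.84 in the Cp-high class and 1.62 in the H2-Ea-expressing class, against 3.68. Of 16239 genes tested 8 were higher (0.0493%), and none was lower by edgeR (1335 genes had an unadjusted p under 0.05, and DESeq2 called 33 higher and 2 lower). The 8, listed after their values were seen, were Ms4a4b, Cd3g, Cd8b1, Themis, Trac, Stat4, Cd5 and Cd3e, and 7 of them, all but Stat4, were among the 192. Ms4a4b, a membrane protein of T cells, gave 0.78 ± 0.12 in the 24 libraries against 1.46 ± 0.22 in the class. Cd3g gave 0.74 ± 0.12 against 2.16 ± 0.38, Cd3e 0.88 ± 0.17 against 2.11 ± 0.38, and Themis, a regulator of receptor signalling, 0.90 ± 0.16 against 1.99 ± 0.44. These libraries too were ranked on Cd8a, so genes carried by the same cells are tied to this split as well. Of the 191 class genes that were tested there, 187 had the same sign, and 111 reached an unadjusted p under 0.05 with the same sign, against 6.48% of all genes tested that were higher at that level. The share with a positive sign over all genes tested was not counted, and their median log2 fold change was -0.0012. The median log2 fold change over the 191 was 0.48 there and 1.27 in the class. The latter is raised by choosing the genes on it.

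In the other 24 libraries the T cell receptor list had 5 of 25 genes called higher and a median of 0.64. The interferon gamma list had 0 of 21 called by edgeR and a median of 0.50, with all 21 positive, and MHC class I 0 of 16 and 0.24, with all 16 positive. MHC class II had 0 of 10 called and a median of 0.73, with 9 positive. Cxcl9 gave 0.62 ± 0.25 in the 24 libraries against 3.26 ± 0.56 in the class, Gbp4 0.57 ± 0.26 against 2.14 ± 0.30, and Pdcd1lg2 0.53 ± 0.31 against 2.84 ± 0.32. Ednrb, lower in the class, gave -0.10 ± 0.18. Of the 9 genes lower in the class, 8 had the same sign in the 24 libraries. An unadjusted edgeR p under 0.05 with the same sign was reached by 2 of the 9. Over all 16239 genes tested 1335 reached that level in either direction, and 1052 of these were higher, so lower genes were the smaller part. The endothelial list had 1 of 13 genes positive in the 24 libraries and a median of -0.29. The library labelled PancO2 anti-PD-1 71, in the H2-Ea-expressing class, stands apart, with 7883106 gene counts and 15.7% of them mitochondrial. Without it 13 genes were called higher in the 23 libraries (0.0794%), 9 of them among the 192, and 25 within the H2-Ea-expressing class alone (0.164%), 18 of them among the 192. The 25 held 6 of the 21 interferon gamma genes (Cd274, Gbp4, Igtp, Irgm2, Nos2 and Tgtp1) and 4 of the 9 class II genes tested (H2-Aa, H2-Ab1, H2-DMb1 and H2-Eb1), and these 2 lists had medians of 0.78 and 0.99. There Cd274 gave 0.80 ± 0.12, adjusted p = 0.0363, and H2-Aa 1.12 ± 0.17, adjusted p = 0.0363. These genes were named after their values were seen, and with this library in the fit no gene of the H2-Ea-expressing class was called by edgeR, with 1257 at an unadjusted p under 0.05.

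**Figure D5:**
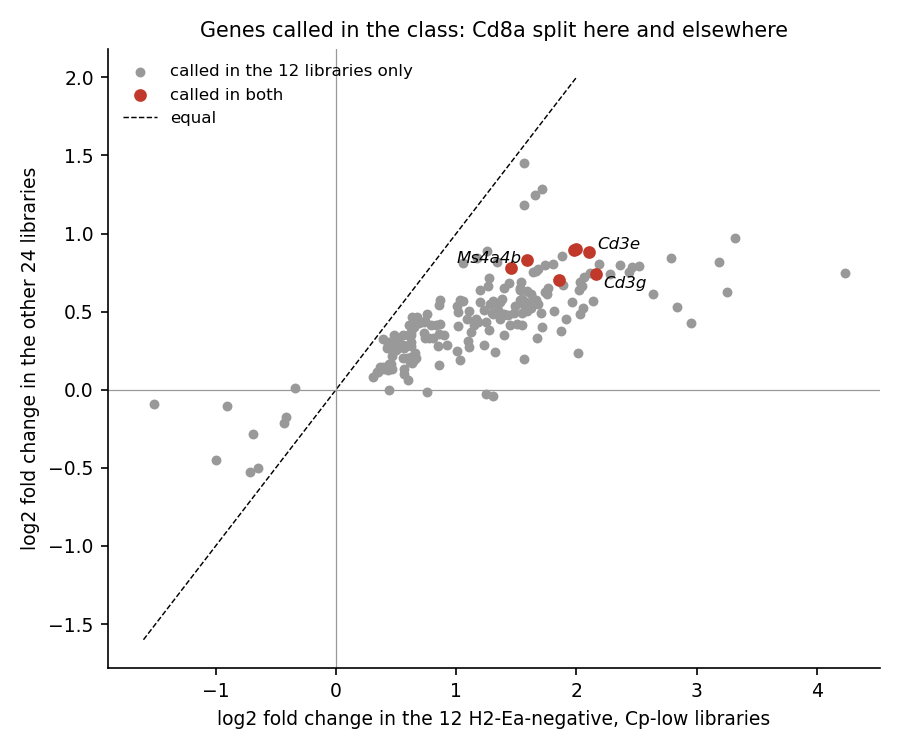
Log2 fold change of the 200 genes called in the class and tested elsewhere, in the class (horizontal) and in the other 24 libraries (vertical), 1 point a gene, with the line of equality dashed. Most points lie on the same side of 0 on both axes and nearer to 0 on the vertical one, and the 7 red points were called in both.

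Whether the split was larger in the class than elsewhere was tested directly. No gene of 16704 passed for the difference to the Cp-high class and none of 16540 for the difference to the H2-Ea-expressing class by edgeR, while DESeq2 called 1 and 15 and limma-voom 0 and 0. An unadjusted edgeR p under 0.05 was reached by 445 and 1356 genes. The smallest adjusted p values by edgeR were 0.205 and 0.170. Cxcl9 differed by 2.95 ± 0.70 from the Cp-high class (adjusted p = 0.940) and by 2.31 ± 0.59 from the H2-Ea-expressing class (adjusted p = 0.363). Dnase1l3 led the comparison with the Cp-high class, with a difference of 2.95 ± 0.53 (adjusted p = 0.205). The Cd8a ratios of the classes differ, so a larger response and a wider split cannot be told apart here.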

How the data were processed

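The data are RNA-seq read counts per Ensembl gene from 36 tumour libraries. The deposited counts are whole numbers that the authors made, per the labels, with FastQC 0.11.5, Bowtie2 and HTSeq 07.2 on mm10, from TruSeq poly-A libraries. Strand use in counting and the Ensembl release are not given in the sources used here, so antisense and overlapping genes cannot be separated. Of 37417 identifiers 32609 had a symbol in GENCODE, and the 5 HTSeq summary lines were left out of totals.

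The class and the Cd8a groups were cut from CPM, and Cd8a was not tested. Members and gene lists were chosen with earlier results of these data known. Counts as deposited were tested with edgeR 4.0.16 in R 4.3.3 (filterByExpr, TMM factors, robust quasi-likelihood fit, two-sided, Benjamini-Hochberg adjusted p under 0.05, called). SE is the absolute log2 fold change over the root of F. The fit outside the class had 1 term for each class. Differences between classes were interaction terms in edgeR. Alternatives used DESeq2 1.42.0 and limma 3.58.1. Intervals are exact binomial (Clopper-Pearson) at 95% and the limit of a count of 0 is 3 counts, and both cover counting error only. Nothing but the labels' mouse numbers shows that libraries are separate samples, and p-values measure the spread between them. Library measures were compared by exact permutation (smallest possible p 0.0022). The scripts were tested on simulated data.

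Named genes were the 12 of largest fold in each direction among called genes with a mean of at least 10 CPM in a group and no overlap, up to 4 per list by p or level, and 10 genes of the study's question. All others were chosen after their values were seen. This holds also where it is not said beside them, as for Lef1, Ncr1, Klrb1c, Cd74 and Gzmc to Gzmf. Python 3.11.15 with numpy 2.4.6, pandas 2.3.3, scipy 1.17.1 and matplotlib 3.10.9 was used for the rest. Reads of several genes were set aside by HTSeq, which lowers close copies. Some genes on the lists are counted but their values are not reported here.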

Additional observations from a re-analysis of the deposited data

Results flagged for a closer look

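In 16 of the 270 sets of 6 libraries examined, mostly 1 per named gene and group, a library stood far from the other 5 by Dixon's test. Chance alone flags about 1 set in 20, which is 13.5 sets here, so the number of flags was close to that.

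In the Cd8a-rich tumours MC38 IgG 2 stood above its group for Ccl5 (61.6 CPM), Fasl (4.91 CPM) and Cd5 (4.91 CPM) and below it for Ifi211 (21.2 CPM). Without this library 123 genes were called higher, against 192 with it. MC38 anti-CTLA4 11 stood above its group for Mrc1 (484 CPM), Reps2 (2.66 CPM) and Cd93 (154 CPM), where it lay within the range of the Cd8a-poor tumours. MC38 anti-CTLA4 10 was high for Tcf7 (25.7 CPM) and PancO2 IgG 49 low for Mmp9 (116 CPM).

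In the Cd8a-poor tumours CT26 anti-CTLA4 32 stood above its group for Cd2 (1.75 CPM), Klrk1 (4.46 CPM), Ctla4 (2.79 CPM) and Cd4 (3.09 CPM), all genes of lymphocytes. CT26 IgG 24 was low for Mki67 (571 CPM) and high for Uck2 (135 CPM), and PancO2 anti-CTLA4 61 was high for Msr1 (234 CPM). The causes were not tested.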

How the results depend on the processing

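The split called 201 genes. The number called, with how many of the 201 it held, was 196 (196) with DESeq2 size factors, 203 (198) with library size only, 207 (181) with no filter beyond 1 count, 154 (154) with at least 10 counts in every library, 224 (194) by limma-voom, 167 (123) with the upper 4 against the lower 4, 293 (142) with Cd8a as a number and 175 (115) in a fit of all 36 libraries. Ranking by Cd8b1 gave 200 (200), but it formed the same groups, so that fit is no separate check. DESeq2 called 394, of which 200 were among the 201, and a fold minimum of 1 on the log2 scale left 124. Leaving out 1 library gave 124 (MC38 IgG 2) to 218 genes (PancO2 anti-CTLA4 61), with 130 without CT26 anti-PD-1 40 and 131 without MC38 anti-PD-1 19, and leaving out the 2 libraries of lowest Cd8a, an alternative added after seeing the data, gave 110. Of 85 called genes named in the text or by the rule, 21 were called under every setting, 64 lost the call under at least 1 and none changed sign under those run, and 53 were called whichever library was left out. Ifit3, Dhx58, Igtp, Irgm2 and Tgtp1 were called and are named above, but they were not among these 85. In the other 24 libraries limma-voom called 2 genes and DESeq2 35, the Cp-high class alone 0 and the H2-Ea-expressing class alone 0 by edgeR (439 and 1257 at an unadjusted p under 0.05), and, in alternatives added after seeing the data, 13 without PancO2 anti-PD-1 71 and 25 in the H2-Ea-expressing class without it. For the differences between classes DESeq2 called 1 and 15 genes and limma-voom 0 and 0. The causes were not tested.

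Signs changed only for 11 genes that were not called. With the upper 4 against the lower 4 the log2 fold changes were -0.19 for Mmp9, -0.070 for Col3a1, 0.0025 for Top2a, 0.23 for Plin4 and -0.11 for Uck2. With Cd8a as a number the slopes were -0.030 for Mmp9, -0.058 for Cd79a, 0.14 for Fcer2a, -0.076 for Col3a1, 0.010 for Top2a, 0.013 for Mki67, 0.048 for Plin4 and -0.052 for Uck2. By limma-voom they were -0.016 for Mmp9 and -0.053 for Cd79a, and without the 2 libraries of lowest Cd8a -0.050 for Apoe and -0.098 for Foxp3. Leaving out 1 library gave ranges of -0.049 to 0.30 for Apoe, -0.017 to 0.31 for Mmp9, -0.16 to 0.19 for Cd79a, -0.095 to 0.23 for Col3a1, -0.080 to 0.038 for Top2a, -0.028 to 0.15 for Uck2 and -0.086 to 0.042 for Msr1. The difference in total gene counts (rich minus poor) ranged from -1499560 to 644189 and that in the mitochondrial share from -0.040 to 0.064 percentage points.

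No paired analysis was possible because the labels number every mouse uniquely and the groups share no number. Depth limits genes near the floor: Ifng rested on at most 12 counts in each Cd8a-poor library. The groups were cut on measured Cd8a, and treatment, model and Cd8a cannot be told apart. The labels of 5 of the 12 libraries go against their strain signal, as do those of libraries outside the class labelled MC38 or PancO2 that express H2-Ea-ps. Each group has 6 libraries, so a gene that was not called is not shown to be alike in both.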
